A study of Mus musculus with 8 samples.

Results

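Reelin signalling was described here through 6 mouse genes: Reln, which encodes the secreted ligand reelin, Lrp8 and Vldlr, which encode its lipoprotein receptors, Dab1, which encodes the intracellular adaptor of those receptors, and Itgb1 and Itga3, which encode the β1 and α3 integrin subunits. The members were taken by gene symbol from the feature lists, and all 6 of them were found in all 8 matrices of the series. The series was counted over 32285 genes, and the tissue single-cell libraries list 32287 features. Reelin is a large extracellular glycoprotein. When it binds Lrp8 or Vldlr, Dab1 docked on the receptor tails is phosphorylated by Src-family kinases, and this passes the signal to kinases and the cytoskeleton and marks Dab1 for degradation. The pathway is best known for placing neurons in the developing brain, and reelin is also known as a product of lymphatic endothelium. The α3β1 integrin, a laminin receptor, has been described as a further binding partner of reelin.

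The series held 4 droplet single-cell RNA libraries and 4 Visium spatial libraries from mouse small and large intestine. The organoid libraries were small intestinal organoids at passage 1 grown alone (control) and in coculture with a partner that the labels used here do not name, with 16 wells pooled and 100000 epithelial cells sorted for each condition, and 1 library for each. The tissue libraries, 1 of small and 1 of large intestine, were live sorted cells enriched for LGR5-positive stem cells and for lymphatic endothelial cells positive for CD31, PDPN and LYVE1. The shares of cell classes in them therefore describe the sort. Wild-type C57BL/6 mice and Lgr5-eGFP-ires-CreERT2 mice on the same background, a knock-in reporter of Lgr5 known for patchy expression, were used for sorting. The labels do not say which cells came from which mice, nor the number or age of the animals, and they name no treatment. The Visium libraries were made with the immunofluorescence protocol on cryosections 10 µm thick, with 2 sections of each intestine described as technical duplicates. Their titles begin with WT (wild type) and their strain is given as C57BL/6. With 1 library per condition and duplicate sections that are not separate animals, no test between conditions could be made. All intervals given are 95% intervals for counting error only, and no value below was checked in another animal or culture.

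Of the deposited cells, 538 of 818 in the control organoids, 1028 of 1233 in the cocultured organoids, 2695 of 8842 in small intestine and 5882 of 8646 in large intestine were kept. The median unique molecular identifier (UMI) counts per kept cell ran from 11810 in small intestine to 86295 in the cocultured organoids. In small intestine 5497 deposited cells were over the mitochondrial limit of 20%, so that library rests on a smaller part of its cells than the others. No cell barcode was shared by the deposited cells of the organoid libraries and 25 were shared by those of the tissue libraries. The sections held 24356162 to 43833127 UMIs. Levels below are counts per 1000000 UMIs (CPM), taken over the summed UMIs of a class, library or section. A level is compared across cells only within 1 gene.

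The lymphatic endothelial-like class, the main source of Reln below, was checked against its markers first. All 6 lymphatic markers had UMIs in both tissues: Mmrn1 stood at 5677 CPM (small intestine) and 4995 CPM (large intestine), and the lowest of them, Pdpn, stood at 258 and 458 CPM. Vwf was at 0 UMIs in this class in both tissues, and Kdr, a receptor that lymphatic and blood endothelium share, was at 1052 and 627 CPM. The other blood endothelial markers used to name classes are not given here, so these values are not a full check of the class. In large intestine the stem-like cluster was led by Cps1 and Rdh1 and not by the stem markers. For Reln, Lrp8, Vldlr, Dab1 and Itga3 the cells with an Lgr5 UMI are therefore given beside it. The pathway lists were counted in the cluster alone.

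The start of Reln is shown because Reln differed more between cell classes than the other members did. Reln lies on chromosome 5 (GRCm38.p6, chr5:21884454-22344705, minus strand). The 250 bases before its annotated start (RefSeq, GRCm38.p6, chr5:22344706-22344955, minus strand) are printed 5′ to 3′ with every CG dinucleotide in capitals.

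Reln: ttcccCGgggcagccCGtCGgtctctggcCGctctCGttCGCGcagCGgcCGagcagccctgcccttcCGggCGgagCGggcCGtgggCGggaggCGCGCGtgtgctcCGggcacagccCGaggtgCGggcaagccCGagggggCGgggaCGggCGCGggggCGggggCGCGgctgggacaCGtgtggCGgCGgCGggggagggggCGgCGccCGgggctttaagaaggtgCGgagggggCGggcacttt

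This window was 80% G or C and held 37 CG dinucleotides, a number reached by 2.20% of the 32851 RefSeq promoter windows of the same length, whose median was 6. It held no TATAAA on either strand, a motif found in 12.4% of those windows. Both Reln and Dab1 start in such CG-rich sequence: the Dab1 window at chr4:104367288-104367537 held 40 CG, which 1.31% of windows reach, and a second Dab1 start 10. The windows of Itgb1 (21 CG) and the CG-richest windows of Itga3 (22), Lrp8 (18) and Vldlr (18) held fewer. The other genes lie on chromosome 4 (Dab1, chr4:103619500-104744844, and Lrp8, chr4:107802200-107876840), chromosome 8 (Itgb1, chr8:128685654-128733579), chromosome 11 (Itga3, chr11:95044475-95076844) and chromosome 19 (Vldlr, chr19:27216480-27254231).

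Reln, the ligand, was high in lymphatic endothelial-like cells of both tissues and far lower in every other named class with 20 or more cells. In small intestine 264 such cells held 2160 Reln UMIs, a level of 1936 CPM (1855 to 2019). In large intestine 205 such cells held 739 UMIs, a level of 1308 CPM (1215 to 1406). These cells carried 84.0% of all Reln UMIs of the small intestinal library and 87.8% of those of the large intestinal library. Reln made up 0.194% and 0.131% of all UMIs in the class. An unnamed small intestinal cluster of 85 shallow cells, led by Sema3d and with UMIs of all 6 lymphatic markers, held a further 250 Reln UMIs at a similar level (2053 CPM) and was kept apart.

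The next class stood far lower in each tissue. In small intestine it was the plasma-like cells, with 69 UMIs in 89 cells (30.4 CPM), which put the lymphatic class 5.99 higher on the log2 scale (5.65 to 6.36). This difference was 4.42 with the loose cell filter (3.50 to 5.55) and 4.77 with the per-cell gate (4.40 to 5.17). In large intestine it was the macrophage or monocyte-like cells, with 25 UMIs in 197 cells (15.6 CPM), and the lymphatic class was 6.39 higher (5.81 to 7.03), or 5.07 with doublets kept. Of the genes that reached 50 UMIs in the lymphatic class, 10 of 4045 in small intestine (0.247%) and 18 of 2102 in large intestine (0.856%) lay at least 16-fold above every other class. Reln was 1 of them in both, ranking 4 of 4045 and 3 of 2102 by that ratio. Among the same genes it ranked 36 and 87 by CPM, so it belonged to the more abundant messages of these cells without being among the very highest. Since lymphatic cells were sorted for and are named by their own markers, this rank describes the class and tests nothing.

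Reln was spread over the lymphatic class and not held by a few cells. In small intestine 1 of 264 cells had no Reln UMI, the median cell held 8 and the highest 23. In large intestine 31 of 205 cells had none, the median cell held 3 and the highest 17, at a median depth of 2292 UMIs per cell against 4052 in small intestine. With every cell thinned to 2000 UMIs, 96.8% (241 of 249 cells, 93.8 to 98.6) and 89.6% (103 of 115, 82.5 to 94.5) had a Reln UMI. B-like cells, the background class, had 1.10% and 0 at the same depth. The per-cell level varied less in small intestine, where its coefficient of variation was 0.516, than in large intestine, where it was 0.814 in shallower cells.

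Blood endothelium, the other endothelial class, held no Reln. In small intestine 39 blood endothelial-like cells had 0 UMIs, and the interval for the log2 difference of the lymphatic class began at 6.25. In large intestine 87 such cells also had 0. Smooth muscle or pericyte-like and fibroblast-like cells had at most 1 Reln UMI in either tissue. Epithelial classes were near the floor: stem-like cells held 5 UMIs (1.34 CPM) in small and 7 UMIs (0.775 CPM) in large intestine, and epithelial cells with an Lgr5 UMI held 18 (1.86 CPM) and 10 (0.369 CPM).

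The low Reln levels outside the lymphatic class were set beside the 6 lymphatic markers in the same cells. In lymphatic endothelial-like cells there were 11.96 Reln UMIs per 100 UMIs of those markers in small intestine (11.4 to 12.5) and 5.87 in large intestine (5.45 to 6.33). Macrophage or monocyte-like, cycling-like and Paneth-like cells of small intestine had ratios of 12.6, 9.84 and 9.09, and their intervals held the lymphatic value. Goblet-like and tuft-like cells had less Reln for their marker UMIs, at 3.64 (1.31 to 8.09) and 1.52 (0.31 to 4.49), and in large intestine goblet-like and fibroblast-like cells did, at 1.14 (0.23 to 3.36) and 0.23 (0.0059 to 1.31). Stem-like cells had 9.43 in small intestine (2.94 to 23.4) and 8.86 in large intestine (3.45 to 19.1), from 5 and 7 Reln UMIs. The summed level of the markers itself differed between classes. In small intestine it was 130 CPM in macrophage or monocyte-like, 126 in tuft-like, 22.9 in Paneth-like and 11.7 in cycling-like cells. In large intestine it was 186 CPM in fibroblast-like and 12.5 in goblet-like cells. How much of it a class makes itself was not tested, so these ratios do not measure lymphatic RNA alone.

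The plasma-like cells did not share the proportion seen in the lymphatic class. They held 69 Reln UMIs against 25 lymphatic marker UMIs in small intestine, or 276 per 100 (172 to 455), and 32 against 29 in large intestine, or 110 per 100 (64.7 to 189). These UMIs lay in 37 of 89 cells in small intestine, with at most 9 in any 1 cell, and in 23 of 291 cells in large intestine, with at most 4. The plasma-like cells were deep (median 25199 and 19760 UMIs), and at 2000 UMIs per cell 2.25% and 0.348% of them kept a Reln UMI, beside 1.10% of the small intestinal B-like cells.

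**Figure D1:**
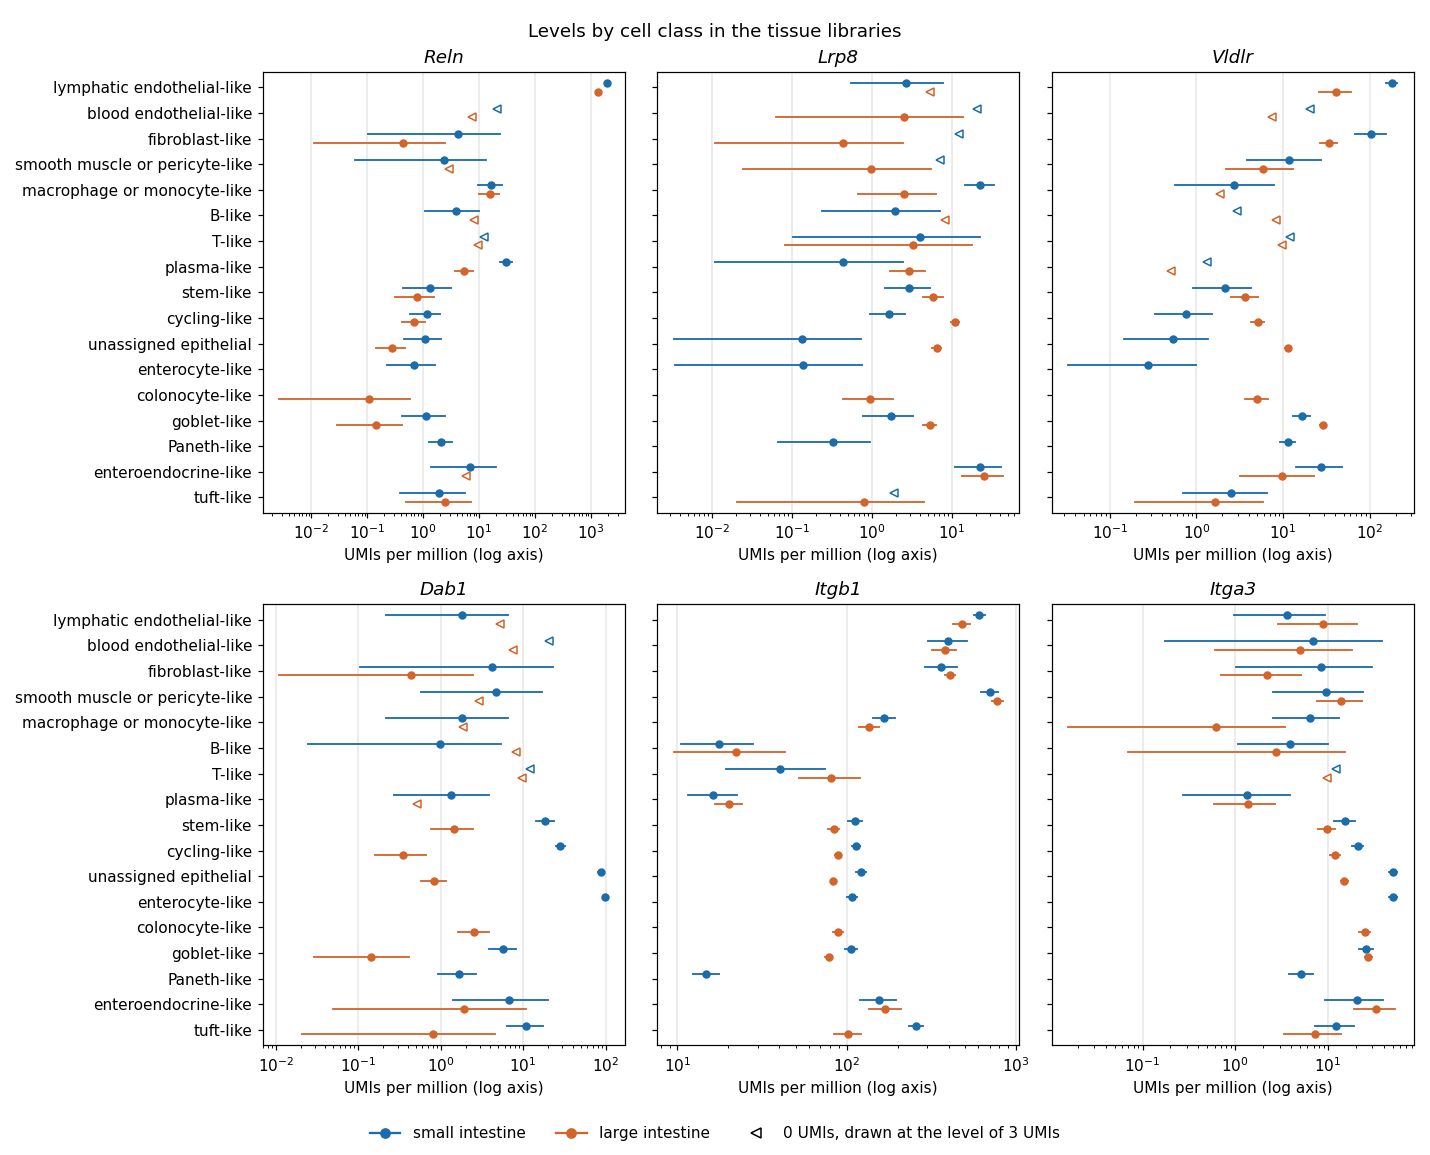
Level of each member (CPM, log axis) by cell class in the small (blue) and large (orange) intestinal libraries; points are summed levels, lines their 95% counting intervals and open triangles classes with 0 UMIs, drawn at the level of 3 UMIs. Reln stands at 1936 and 1308 in the lymphatic endothelial-like class, and Dab1 is high in small intestinal enterocyte-like cells (99.6).

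Vldlr, the receptor of both reelin and very-low-density lipoprotein, was found in the same lymphatic class and in stromal and secretory classes. In small intestine its highest levels were in lymphatic endothelial-like cells (201 UMIs, 180 CPM, 156 to 207) and in 33 fibroblast-like cells (25 UMIs, 104 CPM). The lymphatic class was 0.79 higher on the log2 scale (0.19 to 1.45), but with a per-cell marker gate in place of clusters the difference to the next class was -0.51. It was 2.14 with the loose cell filter and 2.16 with doublets kept, and its interval was 1.44 to 2.60 with coarser clusters. The third class was enteroendocrine-like (12 UMIs, 27.3 CPM), which fibroblast-like cells exceeded by 1.93. In large intestine lymphatic endothelial-like cells (23 UMIs, 40.7 CPM, 25.8 to 61.1), fibroblast-like cells (77 UMIs, 33.6 CPM) and goblet-like cells (614 UMIs, 29.1 CPM) followed each other, with neighbours in this order not separated beyond counting error. At 2000 UMIs per cell 27.3% of lymphatic cells in small and 7.83% in large intestine had a Vldlr UMI, and no B-like cell did in either tissue.

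Within the epithelium of small intestine the 32 enteroendocrine-like cells, with 12 UMIs, had a Vldlr level 2.51 above the other epithelial cells on the log2 scale (1.53 to 3.34), and in large intestine the ratio was -0.31 (-1.93 to 0.92). Goblet-like cells stood 2.22 above the other epithelial cells in small intestine (16.4 CPM, interval of the difference 1.82 to 2.62) and 1.87 above them in large intestine (1.71 to 2.03). Paneth-like cells, the antimicrobial cells of small intestinal crypts, had 103 UMIs (11.3 CPM), 1.72 above the other epithelial cells. Unassigned epithelial cells of large intestine had 493 UMIs (11.4 CPM). Tuft-like cells were low, with 4 UMIs in small intestine (2.54 CPM), and enterocyte-like cells of small intestine were near the floor, with 2 UMIs (0.275 CPM) in 215 cells. Stem-like cells had 8 UMIs in small intestine (2.14 CPM) and 33 in large intestine (3.65 CPM). The stem-like class was below the other epithelial cells in small intestine (log2 ratio -1.30, -2.53 to -0.29), whereas for epithelial cells with an Lgr5 UMI against those without the ratio was 0.47 (0.02 to 0.89). The Lgr5-UMI cells there with a UMI of Lrp8 or Vldlr were 25 Paneth-like, 11 cycling-like, 10 stem-like, 7 goblet-like and 2 tuft-like cells, which were not counted for Vldlr alone. In large intestine the Lgr5 ratio was -0.98. Over all epithelial cells, whose class shares the sort set, Vldlr was lower in small than in large intestine, with a log2 ratio of -1.26. Within classes the ratio was -2.73 in cycling-like (-3.97 to -1.705), -0.83 in goblet-like (-1.17 to -0.499) and -0.77 in stem-like cells (-2.095 to 0.37). In tuft-like cells it was 0.06 (-2.16 to 4.11). Enteroendocrine-like cells went the other way, at 27.3 CPM in small (12 UMIs) and 9.70 CPM in large intestine (5 UMIs).

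Lrp8, the other reelin receptor (also called ApoER2), was sparse. Enteroendocrine-like cells, the hormone-producing cells of the epithelium, had 10 UMIs (22.7 CPM) in 32 cells of small intestine and 13 UMIs (25.2 CPM) in 41 cells of large intestine. These levels were 4.60 (3.44 to 5.62) and 1.91 (0.99 to 2.69) above the other epithelial cells on the log2 scale. In small intestine macrophage or monocyte-like cells had 25 UMIs at the same level (22.7 CPM), not separated from enteroendocrine-like cells by counting error. Dendritic-like cells, only 16 in number and led by the plasmacytoid marker Siglech, had 48 Lrp8 UMIs (412 CPM). Stem-like and cycling-like cells had 11 UMIs (2.95 CPM) and 17 UMIs (1.63 CPM) there.

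In large intestine Lrp8 was more widely detected in the epithelium. Cycling-like cells had 283 UMIs (11.0 CPM), unassigned epithelial cells 280 (6.47 CPM), stem-like cells 53 (5.87 CPM), goblet-like cells 113 (5.36 CPM) and colonocyte-like cells 9 (0.961 CPM). Epithelial cells with an Lgr5 UMI had 212 (7.83 CPM). The enteroendocrine-like class exceeded the cycling-like class by 1.2 on the log2 scale (0.27 to 1.998), and cycling-like exceeded unassigned cells by 0.76, while unassigned, stem-like and goblet-like neighbours were within counting error. Epithelial Lrp8 was lower in small than in large intestine, with a log2 ratio of -2.57 (-3.01 to -2.16) over classes whose shares the sort set. Within classes the ratio was -2.75 in cycling-like (-3.55 to -2.04), -1.64 in goblet-like (-2.81 to -0.67), -0.99 in stem-like (-2.08 to -0.04) and -0.15 in enteroendocrine-like cells (-1.499 to 1.15). Lymphatic endothelial-like cells, where Reln was high, had 3 Lrp8 UMIs in small and 0 in large intestine.

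Dab1, the adaptor, was an absorptive-cell message of the small intestine. Enterocyte-like cells held 725 UMIs (99.6 CPM, 92.5 to 107) and 91.2% of the 215 cells had at least 1. Unassigned epithelial cells held 654 UMIs (86.9 CPM). Among these, 1 cluster of 100 cells led by Clca4a, Slc10a2 and Fabp6, the last pair being bile acid transport genes of the ileum, had 226 UMIs and the highest level of the library (139 CPM, 121 to 158), and 1 of 182 cells led by Gsdmc2 had 428 UMIs (72.6 CPM). The enterocyte-like and unassigned cells together held most of the 1821 Dab1 UMIs of the library, with 39.8% and 35.9% of them.

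Dab1 was lower in the other epithelial classes of small intestine. Cycling-like cells had 295 UMIs (28.3 CPM), stem-like cells 69 (18.5 CPM), tuft-like cells 17 (10.8 CPM), goblet-like cells 30 (5.73 CPM) and Paneth-like cells 15 (1.65 CPM). Cycling-like exceeded stem-like cells by 0.62 on the log2 scale (0.23 to 1.02), and stem-like and tuft-like cells were not separated. Against the other epithelial cells the log2 ratio was -4.91 for Paneth-like cells and -1.18 for stem-like cells (-1.55 to -0.83). Cells with an Lgr5 UMI gave the same order, with 133 UMIs in 311 cells (13.7 CPM) against 1675 UMIs in 1251 cells without one (47.0 CPM). Among small intestinal classes outside the epithelium, lymphatic endothelial-like cells had 2 Dab1 UMIs, plasma-like cells 3, and blood endothelial-like and T-like cells 0.

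In large intestine Dab1 was close to the floor. The whole library held 88 UMIs against 1821 in small intestine. Epithelial cells of small intestine exceeded those of large intestine by 5.66 on the log2 scale (5.35 to 5.99), over classes whose shares the sort set. Within classes the ratio was 6.34 in cycling-like (5.397 to 7.485), 5.33 in goblet-like (3.65 to 7.69) and 3.68 in stem-like cells (2.82 to 4.66). In tuft-like cells, with 1 UMI in large intestine, it was 2.15 (1.06 to 9.12). All 24 UMIs of the 384 colonocyte-like cells (2.56 CPM) lay in 1 cluster of 172 cells led by Tmigd1, Fabp6 and Slc10a2 (6.49 CPM). Stem-like cells had 13 UMIs (1.44 CPM) and lymphatic endothelial-like cells 0. The 880 epithelial cells with an Lgr5 UMI had 16 (0.591 CPM), with a log2 ratio of -0.53 to those without one (-1.41 to 0.27).

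Dab2, a related adaptor that binds receptors of the same family, was the highest of the 5 related receptors and adaptor in lymphatic endothelial-like cells (384 CPM in small and 304 CPM in large intestine), the cells in which Dab1 had 2 and 0 UMIs. Other listed genes of the pathway were counted there too, where 42.5% and 40.0% of all features had at least 1 UMI. Of the 4 proteases listed as able to cleave reelin, 4 had UMIs in the small and 3 in the large intestinal lymphatic class, and Adamts4 was the highest (20 UMIs, 17.9 CPM, and 4 UMIs, 7.08 CPM). Of the 5 other ligands of the receptors, Selenop, a selenium carrier, was the highest (1679 and 998 CPM). Thbs1, thrombospondin 1, stood at 440 and 95.6 CPM. Of the 16 kinases and effectors 15 had UMIs in each tissue, with Cfl1, cofilin, highest (446 and 450 CPM). Of the 6 genes of adaptor and receptor turnover 5 and 6 had UMIs, with Rnf7, a subunit of the ligase that removes Dab1, highest (123 and 117 CPM).

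In stem-like cells the highest genes of the same lists were Plat (3 UMIs in small and 2 in large intestine), Selenop (25.7 CPM, small intestine) and Apoe (15.9 CPM, large intestine), Cfl1 (527 and 574 CPM), Rnf7 (79.0 and 107 CPM) and Lrp4 (30.8 CPM, small intestine). Kinases and effectors had UMIs for 16 of 16 genes in both tissues, where 46.8% and 50.3% of all features did.

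Itgb1, the β subunit shared by many integrins, was found in every class with 20 or more cells and was highest in contractile and endothelial cells. In small intestine it stood at 702 CPM in smooth muscle or pericyte-like, 609 in lymphatic endothelial-like, 399 in blood endothelial-like and 362 in fibroblast-like cells. In large intestine the order was 779 CPM in smooth muscle or pericyte-like, 478 in lymphatic, 407 in fibroblast-like and 380 in blood endothelial-like cells. In each tissue fibroblast-like and blood endothelial-like cells were within counting error of each other, and the classes above them differed beyond it. Paneth-like cells were the lowest epithelial class (14.8 CPM, log2 ratio -3.01 to the other epithelial cells), next to plasma-like cells (16.3 CPM) and B-like cells (17.6 CPM). Epithelial Itgb1 was 0.22 higher on the log2 scale in small than in large intestine.

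Itga3, the α subunit that pairs with it, was highest in epithelial classes. In small intestine it stood at 50.1 CPM in enterocyte-like and 49.8 in unassigned epithelial cells, then at 25.96 in goblet-like, 20.8 in cycling-like, 15.3 in stem-like and 5.16 in Paneth-like cells. In large intestine enteroendocrine-like (33.0 CPM), goblet-like (27.1) and colonocyte-like cells (24.8) came first, smooth muscle or pericyte-like cells had 14 UMIs (13.8 CPM), and stem-like cells had 9.74 CPM. Epithelial cells with an Lgr5 UMI there had 10.6 CPM. The 2 highest classes of small intestine were within counting error of each other, as were neighbours among the 3 highest of large intestine. Lymphatic endothelial-like cells had only 4 and 5 Itga3 UMIs (3.59 and 8.85 CPM), beside Itgb1 levels among the highest of each library. Other α subunits were abundant there: Itga1, a collagen receptor subunit, was the highest of the 8 listed, at 445 and 253 CPM. In stem-like cells the highest was Itga6, a laminin receptor subunit, at 248 and 169 CPM. Of the 6 integrin partners and ligands listed, the tetraspanin Cd151 was highest in lymphatic cells (102 and 246 CPM) and in large intestinal stem-like cells (34.3 CPM), and Itgb4 in small intestinal stem-like cells (28.7 CPM).

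The genes whose pattern was nearest to each member were taken by Pearson's r of log2(CPM + 1) over 29 named classes of both tissues, among 11134 genes. For Reln they were Mmrn1 (r = 0.92), Tbx1 (0.91) and Ccl21a (0.90), of which Mmrn1 and Ccl21a are among the markers that name the lymphatic class. For Dab1 they were Nags (0.93), Hkdc1 (0.88) and Dgat1 (0.88), and for Itga3 Myo1d (0.90), Baiap2l2 (0.87) and Dcbld1 (0.86). For Vldlr they were Rnase4 (0.85), Camk2n1 (0.79) and Ang (0.78), for Lrp8 Cln3 (0.73), Map3k15 (0.70) and Ffar2 (0.69), and for Itgb1 Vcl, Ro60 and Bmpr2 (0.91, 0.91 and 0.90). These classes share 2 libraries and differ in depth, so the values describe likeness only.

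Receptor and adaptor were then counted in the same epithelial cells. In small intestine 193 of 1562 epithelial cells (12.4%) had an Lrp8 or Vldlr UMI, 690 (44.2%) had a Dab1 UMI and 46 (2.94%, 2.16 to 3.91) had both. Among cells with a receptor UMI 23.8% (18.01 to 30.5) had Dab1, against 47.0% (44.4 to 49.7) of the cells without, although the former were the deeper (median 29836 against 25977 UMIs). The cells with a Vldlr UMI carried this gap, with Dab1 in 30 of 158 (18.99%, 13.2 to 25.98). Of the 42 cells with an Lrp8 UMI 16 had Dab1 (38.1%).

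The classes in which each gene was found differed in small intestine. Enterocyte-like cells had Dab1 in 196 and a receptor in 3 of 215 cells. Paneth-like cells had Dab1 in 14 and a receptor in 69 of 203 cells, and goblet-like cells had Dab1 in 27 and a receptor in 63 of 224. Co-detection was spread thinly, with 11 cycling-like, 9 Paneth-like, 9 goblet-like and 6 stem-like cells, 3 each of the tuft-like, enterocyte-like and unassigned classes and 2 enteroendocrine-like cells. Those that also had an Lgr5 UMI were 6 cycling-like, 5 Paneth-like, 4 stem-like and 2 tuft-like cells. Free RNA can give such UMIs: the 89 plasma-like cells, at a median of 25199 UMIs, had Dab1 in 3 cells (3.37%, 1.32 CPM), Lrp8 in 1 and Vldlr in 0. Dab1 in Paneth-like cells, at a median of 17981 UMIs, was 1.65 CPM (0.921 to 2.71), within counting error of that level. It was found in 14 of those 203 cells (6.90%). The part of free RNA in these and the other pairs was not tested. Depth bore strongly on these counts: at 2000 UMIs per cell 0 of 1500 small intestinal epithelial cells (upper bound 0.246%) and 0 of 3822 large intestinal ones (upper bound 0.0965%) had both. In large intestine without thinning 1282 of 3917 cells (32.7%) had a receptor UMI, 66 (1.69%) had Dab1 and 14 (0.357%) had both.

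**Figure D2:**
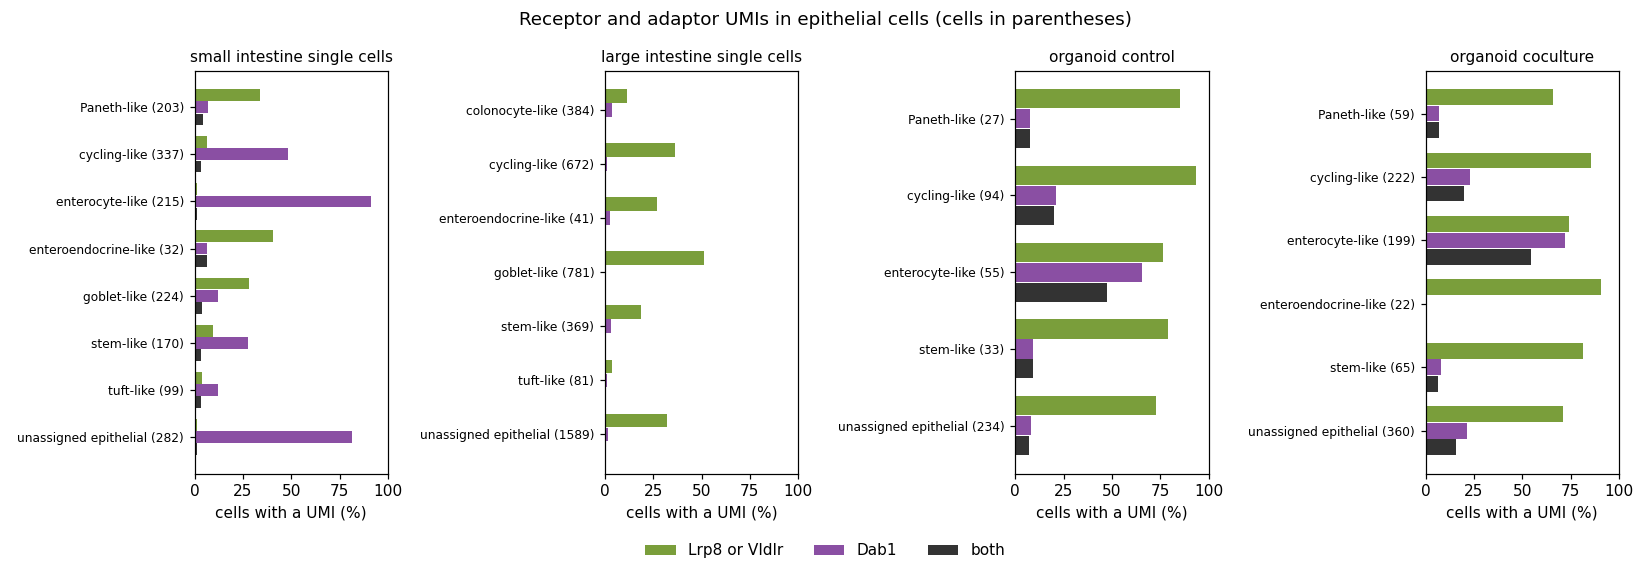
Percent of epithelial cells of each class with a UMI of Lrp8 or Vldlr (green), of Dab1 (purple) and of both (black) at full depth, by library, with the number of cells in parentheses. In small intestinal enterocyte-like cells Dab1 bars reach 91.2% and receptor bars 1.40%, while both are high in organoid enterocyte-like cells.

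In organoids, which were sequenced more deeply, co-detection was commoner. Of 448 epithelial cells of the control 352 had a receptor UMI, 80 had Dab1 and 66 (14.7%, 11.6 to 18.4) had both. Of 927 epithelial cells of the coculture 706 had a receptor UMI, 281 had Dab1 and 217 (23.4%, 20.7 to 26.3) had both. At 10000 UMIs per cell 4 of 431 (0.928%) and 16 of 903 (1.77%, 1.02 to 2.86) had both, and these intervals overlapped. Enterocyte-like cells accounted for much of it, with both in 26 of 55 control (47.3%) and 109 of 199 coculture cells (54.8%). In cocultured cells with a Vldlr UMI Dab1 was found in 36.0% (31.8 to 40.4), against 23.7% (19.8 to 28.0) of those without. For Lrp8 the order was the opposite, 19.9% against 37.9%. In the control the Lrp8 values were 16.4% (11.4 to 22.5) and 18.9% (14.3 to 24.2), and at 10000 UMIs per cell the intervals for either receptor overlapped in both libraries. Itga3 and Itgb1 were found together in 40.1% of small intestinal, 73.7% of control organoid and 70.7% of cocultured organoid epithelial cells at full depth.

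The organoids had no Reln UMI in either condition: 0 in both libraries, and in the 869 cocultured epithelial cells without an Lgr5 UMI this left an upper bound of 0.0416 CPM. The other members were all detected. Vldlr was at 946 UMIs in control and 1834 in coculture (21.9 and 18.9 CPM), Lrp8 at 528 and 882 (12.2 and 9.10 CPM), Dab1 at 152 and 684 (3.51 and 7.06 CPM), Itgb1 at 7048 and 10900 (163 and 112 CPM) and Itga3 at 1123 and 1890 (25.95 and 19.5 CPM).

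Dab1 was therefore 1.01 higher on the log2 scale in coculture (0.75 to 1.27), and the 4 other detected members were lower, although the direction for Vldlr turned (0.08) with every cluster weighted as in the control. The log2 differences were -0.42 for Lrp8 (-0.58 to -0.27), -0.21 for Vldlr (-0.32 to -0.09), -0.53 for Itgb1 (-0.58 to -0.49) and -0.41 for Itga3 (-0.52 to -0.30). With the CPM of single cells averaged Lrp8 differed by -0.01 and Vldlr by -0.03. Of 5 members with at least 50 UMIs in the higher library, 1 lay past 2-fold, against a background of 4.66% of 12101 genes in either direction and 1.71% higher in coculture. The median gene differed by -0.10. Each condition was 1 library, so these differences compare those libraries and cannot be told apart from differences between cultures.

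Cell classes also differed between the libraries. Enterocyte-like cells were 10.2% of the control and 19.4% of the cocultured cells, and held 57.9% and 64.9% of the Dab1 UMIs. Of 8 enterocyte markers 7 were higher in coculture (summed level 7452 against 9353 CPM). Of 8 Paneth markers 7 were higher too (6031 against 7486 CPM), and Paneth-like cells held 4 Dab1 UMIs in each library. Enteroendocrine-like cells, with 0 Dab1 UMIs, were 0.929% and 2.14% of the cells. The part of these shares in the Dab1 difference was not tested. Within enterocyte-like cells Dab1 stood at 20.5 CPM in control and 25.8 in coculture, a log2 difference of 0.33 whose interval began just above 0 and ran to 0.68. Within unassigned epithelial cells it was 1.40 against 4.40 CPM (log2 1.65, 1.04 to 2.33). This class pools 4 clusters whose shares differed between the libraries, and 1 of them, with 27 control and 84 cocultured cells, held 99 of its 150 cocultured Dab1 UMIs (7 of 25 in control). In that cluster the log2 difference was 1.64 (0.54 to 2.99). In the other 3 clusters, with 3 to 10 control UMIs each, it was 1.16, 0.89 and 1.204, also higher in coculture but with intervals across 0. In cycling-like cells the difference was -0.05. With every cluster weighted as in the control, an alternative added after the data were seen, Dab1 was 0.51 higher on the log2 scale.

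Receptor levels differed between organoid classes, which were named separately from the tissue classes. Organoid enterocyte-like cells had Vldlr at 35.4 CPM (control) and 34.4 CPM (coculture), against 0.275 CPM in the enterocyte-like cells of small intestine, while their Lrp8 was low (5 and 11 UMIs). Cycling-like cells had Lrp8 at 20.6 and 13.8 CPM and stem-like cells at 18.3 and 15.6 CPM. Cocultured enteroendocrine-like cells had the highest levels of both receptors among the named classes of that library (58.5 CPM of Lrp8 and 57.2 of Vldlr in 22 cells). Cells with an Lgr5 UMI had more Lrp8 than those without, by 0.85 on the log2 scale in control (0.59 to 1.11) and 0.55 in coculture (0.23 to 0.86), and by 0.27 in large intestine (0.04 to 0.50). In small intestine the value was 0.71 with an interval across 0 (-0.24 to 1.59). Dab1 ran the other way, at 0.879 CPM in the 87 Lgr5 cells and 4.40 CPM in the other 361 cells of the control (log2 ratio -2.32, -3.48 to -1.36), and 1.96 CPM in 58 and 7.48 CPM in 869 cells of the coculture (-1.93, -2.78 to -1.201). The 8 stem markers were all lower in coculture (summed level 496 in control and 331 CPM in coculture), and their part in these differences was not tested. The organoid stem-like cluster had an Lgr5 UMI in 9 of 33 control and 0 of 65 cocultured cells.

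**Figure D3:**
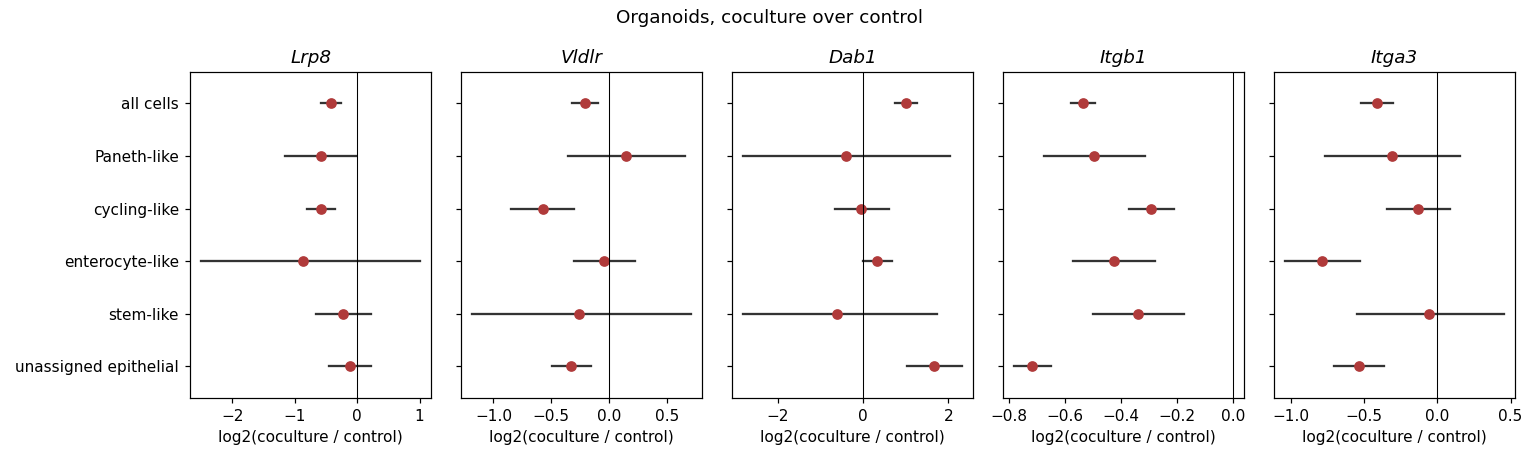
Difference between cocultured and control organoids (log2 ratio of CPM) for the 5 members with UMIs, in all cells and by class, with 95% counting intervals. For Dab1 the point for all cells lies at 1.01 and that for enterocyte-like cells at 0.33, while the points for all cells of the other members lie below 0.

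Of 50 other listed pathway genes 39 had enough UMIs. At least 2-fold lower in coculture were 8 of them, against a background of 2.95% of 12101 genes, and 0 were at least 2-fold higher, which is near the background of 1.71%, with a median of -0.39 against -0.10 over all genes. Among them were Plat, a protease that cleaves reelin (log2 difference -1.89), the receptor ligands Thbs1 (-1.65) and Clu (-7.52), the integrin subunits Itga2 (-1.25) and Itgav (-1.53), and the laminin chains Lama3 (-6.70) and Lama5 (-1.54). Clu had 4597 UMIs in control and 56 in coculture. All 15 measured kinases and effectors and all 5 measured turnover genes were within 2-fold.

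In the Visium sections each member was measured over whole tissue, where fewer cells of a type and less RNA per cell cannot be told apart. Reln stood at 5.09 and 5.12 CPM in the small intestinal sections (124 and 154 UMIs) and at 5.58 and 5.57 CPM in the large intestinal ones (230 and 244 UMIs). The sections of each tissue were nearly equal, and the log2 difference of small over large intestine was -0.13, with an interval across 0 (-0.34 to 0.09). The 5 lymphatic spot markers stood at 56.5 and 59.6 CPM against 107 and 96.4 CPM.

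Dab1 was almost confined to the small intestinal sections in UMIs: 670 and 998 (27.5 and 33.2 CPM) against 2 and 4 (0.0485 and 0.0913 CPM), a log2 difference of 8.76 (7.64 to 10.21). Vldlr was at 2.997 and 3.69 CPM in small against 6.74 and 6.80 CPM in large intestine, a difference of -1.02 (-1.25 to -0.76). Itgb1 was at 306 and 383 against 148 and 145 CPM, 1.24 higher in small intestine. Lrp8 was at 1.27 and 2.36 against 2.01 and 2.35 CPM, with the tissues overlapping, and Itga3 at 64.3 and 67.9 against 52.6 and 54.1 CPM (0.31, 0.25 to 0.38). Thus 3 of 6 members lay past 2-fold with no overlap between sections, against a background of 28.3% of 14755 genes. The muscle markers moved the same way as Itgb1, at 6134 and 8196 CPM in small and 1300 and 1289 CPM in large intestine, and their part in it was not tested.

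**Figure D4:**
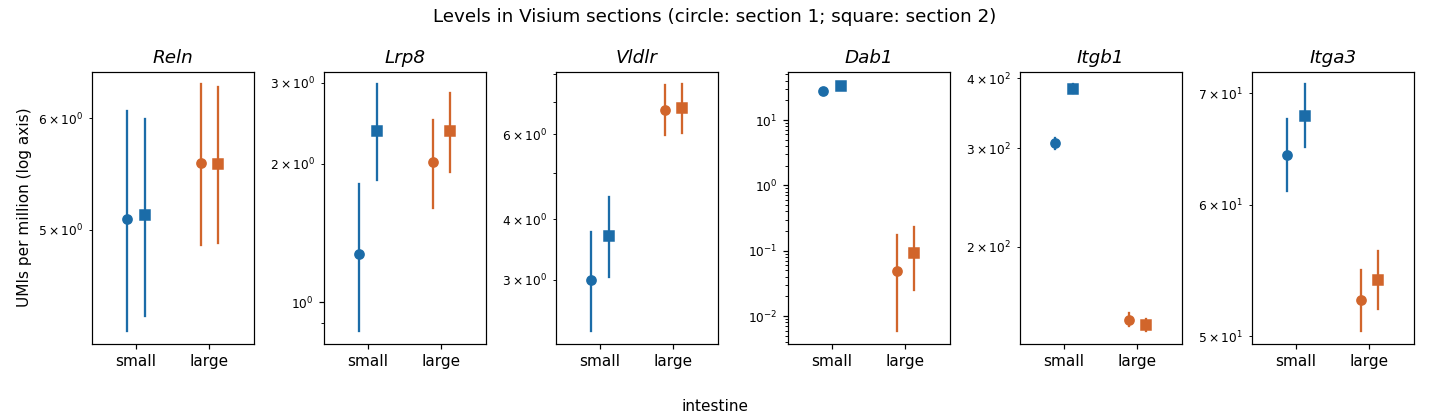
Level of each member (CPM, log axis whose range differs between panels) in each Visium section of small (blue) and large (orange) intestine, with 95% counting intervals. Dab1 falls from 27.5 and 33.2 in small intestine to below 0.1 in large intestine, and Reln stays between 5.09 and 5.58.

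Within sections spots were split by marker lists after thinning to 2000 UMIs. A spot covers several cells, so the split compares small regions. Reln was higher in spots with a lymphatic marker UMI (209 of 2063, 254 of 2424, 339 of 2084 and 349 of 2166 spots) in all 4 sections. Its levels there were 23.4 against 3.41 CPM and 28.7 against 2.76 CPM in small intestine, and 25.6 against 3.15 and 21.98 against 3.38 CPM in large intestine. The log2 ratios were 2.78, 3.38, 3.02 and 2.70.

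Reln was also higher in spots rich in muscle markers, by 1.96 and 1.82 in small and 2.20 and 2.43 in large intestine on the log2 scale. The ratios were 1.63, 2.35, 1.92 and 1.70 for fibroblast markers and 1.31, 0.65, 1.502 and 1.49 for enteric neuron markers. Without a lymphatic UMI the enteric neuron ratios were 1.305, -0.75, 0.60 and 1.46, with intervals across 0 in small intestinal section 2 and large intestinal section 1, and among spots with many muscle UMIs they were 0.56, -0.24, 0.34 and 0.46, all with intervals across 0. For blood endothelial markers the ratios were 0.86, 0.79, 1.27 and 0.84, above 0 beyond their intervals. Among spots with many muscle UMIs those with a lymphatic marker still had more Reln, by 2.71 and 3.18 in small and 2.16 and 1.84 in large intestine. Among spots with few muscle UMIs the ratios were 0.69 (3 UMIs in the lymphatic spots), 2.62, 2.82 and 1.90. Among spots without an enteric neuron marker they were 2.81, 3.12, 2.96 and 2.75. Crypt-marker spots had more Reln as well (1.06 and 1.80 in small, 0.60 and 0.87 in large intestine), and spots rich in surface markers of their own tissue had less (-1.26 and -1.82 in small, -1.33 and -1.07 in large intestine).

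**Figure D5:**
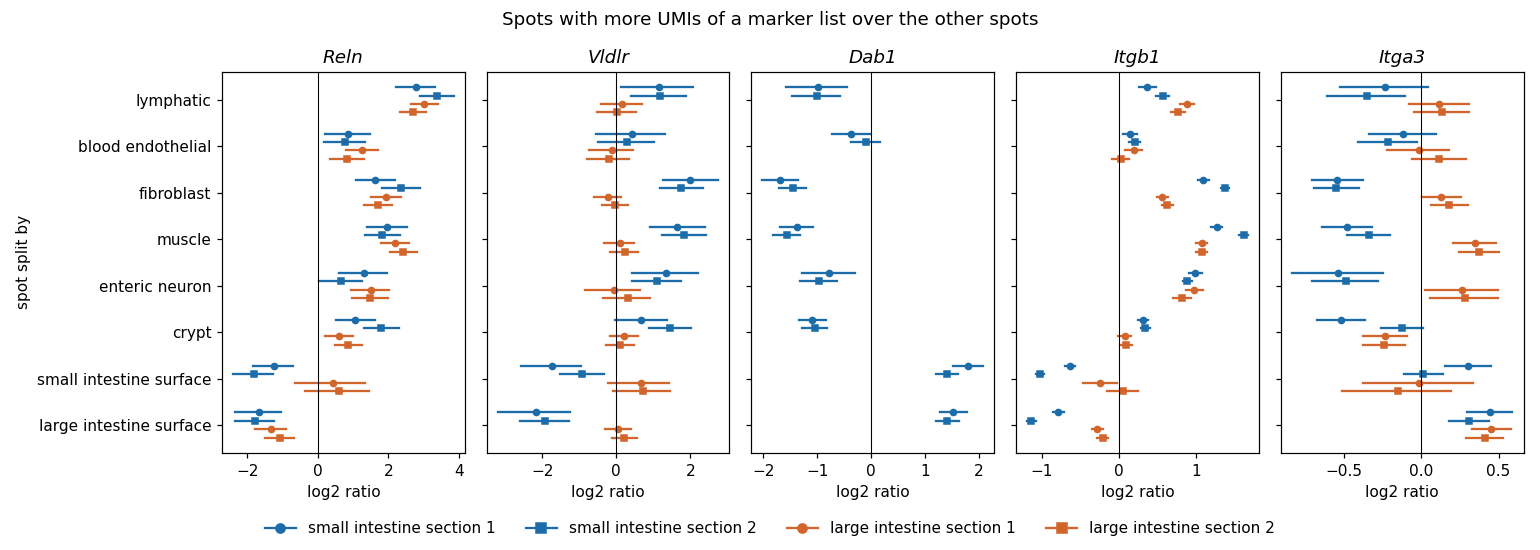
Log2 ratio of 5 members' levels in spots with more UMIs of a marker list over the other spots of the same section, in 2 sections of small (blue) and 2 of large (orange) intestine, with 95% counting intervals; Dab1 is drawn for small intestine only and Lrp8 is left out for its few UMIs. Reln is highest in lymphatic-marker spots (2.70 to 3.38), and Dab1 in spots with more surface markers.

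The other members had their own places in the sections. Small intestinal Dab1 was higher in spots rich in surface markers, at 40.8 against 11.7 CPM and 47.2 against 17.8 CPM (log2 1.80 and 1.41), and lower in spots rich in crypt (-1.09 and -1.05) or muscle markers (-1.38 and -1.57). It was lower in lymphatic-marker spots as well (-0.99 and -1.01). Lrp8 was higher in crypt-marker spots in all 4 sections (1.71, 1.07, 1.26 and 0.75), from 9 to 63 UMIs on the lower side. Vldlr was higher in muscle-marker spots of small intestine (1.64 and 1.82), where in large intestine the ratios were 0.09 and 0.22 with intervals across 0. In lymphatic-marker spots its ratios were 1.15 and 1.17 in small and 0.16 and 0.03 in large intestine. Itgb1 was higher in muscle-marker spots in both tissues (1.26 and 1.61, and 1.07 in each large intestinal section).

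Spots were also grouped into regions by their overall expression. In large intestine Reln was highest in the region led by the lymphatic genes Mmrn1 and Ccl21a and the endothelial gene Cldn5, at 38.0 and 30.7 CPM (89 and 76 UMIs), where the lymphatic markers summed to 943 and 693 CPM. The next was a region led by the enteric neuron genes Vip, Penk and Calb2 (11.3 and 15.9 CPM of Reln), which also had the second highest lymphatic marker level (333 and 348 CPM). In small intestine Reln was highest in a region led by the Paneth cell defensins Defa35 and Defa34, at 14.6 and 28.3 CPM (35 and 48 UMIs), which also had the highest lymphatic marker level of that tissue (209 and 321 CPM). In the sorted cells Paneth-like cells themselves had 2.09 CPM of Reln. Small intestinal Dab1 was highest in the region led by Bhmt and Sis (44.9 and 55.4 CPM), followed by that led by Slc28a2, Ada and Apoa4 (43.4 and 46.3 CPM), and stood at 9.83 and 11.4 CPM in the proliferative region led by Melk and Ube2c. Large intestinal Vldlr was highest in the region led by Mal, Sptssb and Tmigd1 (13.6 and 14.3 CPM), although the split of spots by large intestinal surface markers gave 0.04 and 0.22 with intervals across 0. Small intestinal Lrp8 was at 3.59 and 14.9 CPM (2 and 16 UMIs) in the region led by the neuropeptide genes Gal, Nmu and Cartpt and at 3.38 and 4.5 CPM in the proliferative region. Large intestinal Itga3 was highest in the Vip-led region (76.4 and 89.6 CPM) and in one led by haemoglobin genes and Pi16 (78.3 and 74.6 CPM).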

How the data were processed

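The deposited matrices hold UMI counts per gene and cell or spot, not normalized. Per the submitters' processing notes the tools included Cell Ranger 6.0.1 and the build was mm10, and per the file headers the Visium counts came from Space Ranger 1.2.1. Whether intronic reads were counted, and how the organoid conditions, pooled before sequencing per the labels, were told apart, is not given in the sources used here.

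A cell was used if it had 500 genes or more and no more than 20% of its UMIs from mitochondrial genes. The highest Scrublet scores (0.8% per 1000 cells) were removed as doublets (2, 9, 61 and 306 cells in control, coculture, small and large intestine). Cells were clustered with Scanpy 1.11.5 (Leiden, resolution 1) without the members and pathway genes, and clusters were named "X-like" from marker lists. Epithelial clusters without a name are "unassigned epithelial". Low-UMI or mixed clusters stayed unnamed. Levels are counts per 1000000 summed UMIs (CPM) with exact Poisson intervals, shares have exact Clopper-Pearson intervals, and ratios the exact interval of 2 Poisson counts. A count of 0 is bounded by the upper end of its exact interval. In the point value of a ratio, counts under 3 UMIs were set to 3. Spots with at least 500 UMIs were used. To compare shares, cells were thinned to 10000 (organoids) or 2000 UMIs (tissue and spots). The ratio script was tested on simulated counts. Python 3.11.15, NumPy 2.4.6, SciPy 1.17.1 and pandas 2.3.3 were used.

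All 6 members are named. For each, the 3 genes nearest in pattern are named, and of the pathway lists those past 2-fold between organoids and the highest gene of each list in lymphatic and stem-like cells. Clusters, spot regions, and single genes of those lists beyond this rule (Thbs1) were chosen after their values were seen. Some genes that the rule would name are not reported here. The members and lists were chosen with earlier results of these data known. Alternatives covered filters, doublets, resolution, scaling, gates, thinning and each section left out. Promoter windows are from RefSeq (GRCm38.p6, the build of mm10), in which all 6 members matched.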

Additional observations from a re-analysis of the deposited data

Results flagged for a closer look

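Itga3 went opposite ways in the sections of the 2 tissues. In spots rich in muscle markers its log2 ratio over the other spots was -0.48 and -0.34 in small intestine and 0.35 and 0.37 in large intestine. For enteric neuron markers the ratios were -0.54 and -0.49 against 0.26 and 0.28, and for fibroblast markers -0.54 and -0.55 against 0.13 and 0.18. Dab1 in stem-like over other epithelial cells was -1.18 on the log2 scale in small and 0.98 in large intestine, where it rests on 13 UMIs and was -0.45 with the loose filter and -0.53 for cells with an Lgr5 UMI. These differences between tissues were not tested.

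Members also had high levels in clusters outside the named classes of the report, or in classes under 20 cells of a library. In an unnamed organoid cluster of 53 cells with a median of 8968 UMIs, Vldlr stood at 122.9 CPM in control and 159.3 CPM in coculture, Itga3 at 105.8 and 63.73 CPM, Itgb1 at 201.4 CPM in control and Lrp8 at 45.52 CPM in coculture. The 5 enteroendocrine-like cells of the control had Lrp8 at 51.76 and Itgb1 at 291.2 CPM. In small intestine an unnamed cluster of 85 cells with a median of 1292 UMIs, led by Sema3d, Dmtn and Hmcn1, had Reln at 2053 and Vldlr at 172.5 CPM, with all 6 lymphatic markers detected. The 16 dendritic-like cells, led by Siglech, had Lrp8 at 412.3 CPM, with 48 UMIs in 15 cells. The 13 enteric neuron or glia-like cells had Reln at 142.9 CPM, from 8 UMIs in 1 cell. They also had 82 lymphatic marker UMIs, with all 6 markers detected, or 9.76 Reln UMIs per 100 of these (4.08 to 20.1) against 11.96 in lymphatic endothelial-like cells, and the part of lymphatic RNA was not tested. In large intestine an unnamed cluster of 64 cells had Itgb1 at 556.9 CPM.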

How the results depend on the processing

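No paired analysis was possible because no result comes from a test. Of 318 alternative values over 45 results, 247 lay within the counting interval of the main value and 66 outside it. The other 5 changed the sign of a value whose interval excluded 0. Where no cause is named it was not tested. The 5 were as follows: Vldlr in lymphatic over the next class of small intestine was -0.51 and Vldlr in stem-like cells there 0.47 with the per-cell gate, Dab1 in stem-like cells of large intestine was -0.45 with the loose filter and -0.53 with the per-cell gate, and Vldlr in coculture over control was 0.08 with clusters weighted as in the control, an alternative added after the data were seen, like counting the low-UMI cluster as lymphatic and the 16-fold threshold. Values whose interval held 0 turned too: Vldlr in lymphatic over the next class of large intestine (0.28) to -0.05 with doublets kept and -0.43 with the per-cell gate, Lrp8 in stem-like over other epithelial cells there (-0.23) to between 0.16 and 0.90 under both filters, both resolutions and the per-cell gate, and Lrp8 between tissues (-0.26) to 0.01 without section 1. Reln in lymphatic cells over the next class was 4.42 (loose filter) and 4.77 (per-cell gate) in small and 5.07 (doublets kept) in large intestine. Dab1 in small over large intestinal epithelium was 6.25 (strict filter) and 5.28 (mean of each cell's CPM). In organoids averaging the CPM of single cells gave -0.01 for Lrp8, -0.03 for Vldlr and -0.84 for Itga3, median-of-ratios scaling, which shifts every gene by 0.15, gave -0.06 for Vldlr, -0.39 for Itgb1 and -0.27 for Itga3, the strict filter gave -0.08 for Vldlr, and control cluster weights gave 0.51 for Dab1 and -0.39 for Itgb1. Co-detection without thinning was 14.7%, 23.4%, 2.94% and 0.357% (control, coculture, small and large intestine), at 5000 UMIs 0.229% and 0.219% in organoids, and 2.90% in coculture with the loose filter. Reln in lymphatic-marker spots was 2.51 (gate without thinning) and 1.98 (few muscle UMIs) in small and 2.25, 2.37 (few) and 1.98 (many muscle UMIs) in large intestine. Leaving out a section gave 2.78 to 3.38 and 2.70 to 3.02 for it, -0.13 to -0.12 for Reln and 8.51 to 9.15 for Dab1 between tissues, and 0.01 to -0.66 for Lrp8.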
